A study of Mus musculus with 8 samples.

Results

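The 9 genes described here are Ms4a3, Ms4a4a, Ms4a4c, Ms4a6b, Ms4a6c, Ms4a6d, Ms4a7, Ms4a8a and Ms4a14, members of the Ms4a family of membrane proteins. They were chosen by gene name from the family with their levels and earlier results of the same comparison in view, so their differences are given as a description and support nothing further. Of the 9 symbols, 8 had a row among the 23469 genes of the table, and these 8 were all among the 8801 genes tested, those averaging 1 TPM or more over the 8 libraries (the filter on level). Ms4a3 was not analysed here. The libraries were 4 of AeEMs (embryonic, tdTomato-negative macrophages) and 4 of AeMMs (monocyte-derived, tdTomato-positive macrophages), all sorted from the bloody ascites of female C57BL/6 Ms4a3Cre-RosaTdT mice. Every mouse had received ID8 cells, a mouse ovarian surface epithelial tumour line, into the peritoneum at 4 to 5 weeks of age, and ascites was taken at 65 days with no treatment given. Both populations passed one gate of live CD45+ cells, negative for Ly6G, SiglecF and Ly-6C and positive for F4/80 and CD11b, before the split on tdTomato. In these mice Cre follows Ms4a3, a gene of granulocyte-monocyte progenitors, so a tdTomato-negative macrophage is one in whose ancestry this switch was not recorded, and both groups carry the same alleles. The ascites came from 4 mice, so AeEM and AeMM libraries share animals, but neither the labels nor the paper's methods tie libraries of the same number to 1 mouse.

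Ms4a proteins cross the membrane with several spans. The family includes CD20 (Ms4a1) of B cells and the beta chain of the high-affinity IgE receptor (Ms4a2) of mast cells, both of which sit beside signalling receptors and tune them. In macrophages, Ms4a4a associates with the beta-glucan receptor Dectin-1, Ms4a6d has been tied in mice to Vsig4 and to restraint of the NLRP3 inflammasome, and Ms4a8a was described in mice in alternatively activated macrophages. Ms4a7 is widely used in the brain to tell border-associated and marrow-derived macrophages from microglia.

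All 9 genes lie in 1 cluster on chromosome 19, which runs from 10962293 to 11640851 (mm10, GENCODE M21) over 678.6 kb and holds 21 annotated family genes. Stretches before the RefSeq start sites of the 3 genes called in the whole-table test, and of Ms4a6c, a close relative of Ms4a6b, are shown because the results turn on these genes. The values are per gene and do not tell which start was used. They were taken from RefSeq on GRCm38.p6, are written 5′ to 3′ on the gene's strand and end at the RefSeq start or, for Ms4a6b and Ms4a6c, where an exon in GENCODE begins, and capitals mark the letters AGGAAGT, a core that PU.1 and other Ets factors can bind. The Ms4a4a stretch is chr19:11375238-11375487 (plus strand), that of Ms4a7 is chr19:11336147-11336396 (minus strand), that of Ms4a6b is chr19:11518309-11518452 (plus strand) and lies in the first intron of the GENCODE transcript that starts at 11516512, and that of Ms4a6c is chr19:11469118-11469365 (plus strand).
Ms4a4a: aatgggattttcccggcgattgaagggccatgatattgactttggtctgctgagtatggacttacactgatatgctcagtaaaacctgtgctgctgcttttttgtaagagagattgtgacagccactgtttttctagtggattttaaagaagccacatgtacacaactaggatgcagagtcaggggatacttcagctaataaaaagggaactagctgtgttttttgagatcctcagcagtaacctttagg
Ms4a7: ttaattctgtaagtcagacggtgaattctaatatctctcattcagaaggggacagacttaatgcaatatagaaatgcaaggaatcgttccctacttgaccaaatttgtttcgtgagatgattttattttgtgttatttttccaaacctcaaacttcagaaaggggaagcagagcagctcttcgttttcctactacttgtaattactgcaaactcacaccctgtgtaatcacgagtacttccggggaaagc
Ms4a6b: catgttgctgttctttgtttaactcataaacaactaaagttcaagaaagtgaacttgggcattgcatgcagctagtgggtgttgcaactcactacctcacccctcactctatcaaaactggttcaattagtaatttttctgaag
Ms4a6c: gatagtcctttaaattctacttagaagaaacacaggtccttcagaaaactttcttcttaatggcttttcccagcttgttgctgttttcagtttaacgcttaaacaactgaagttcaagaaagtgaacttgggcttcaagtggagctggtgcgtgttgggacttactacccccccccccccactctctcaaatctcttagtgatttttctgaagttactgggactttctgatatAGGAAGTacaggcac

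RefSeq windows of 250 bases before the start were present for 8 of the 9 genes, Ms4a3 among them and Ms4a6d not. AGGAAGT, on either strand, was found in 2 of the 8 windows, those of Ms4a6b and Ms4a6c, against 7.7% of 32851 mouse windows of the same length. In Ms4a6c it lies 17 to 11 bases before the start. In Ms4a6b the copies lie 86 to 80 and, on the opposite strand, 43 to 37 bases before the RefSeq start, inside the 106 bases that GENCODE assigns to an exon of another Ms4a6b transcript and that are not printed. The windows of Ms4a6b and Ms4a6c share a run of 48 bases, at 118 to 71 bases before the start of Ms4a6b and at 49 to 2 bases before that of Ms4a6c, and the first AGGAAGT of Ms4a6b and that of Ms4a6c are the same letters of this run. The longer form GAGGAAGT (in 2.4% of windows), the interferon-stimulated response element (as a half-site pair, 3.0%) and the C/EBP form TTGCNNAA (9.6%) were in none of the 8 windows. The AP-1 form TGANTCA (6.7%) was in those of Ms4a14 and Ms4a8a, and TATAAA (12.4%) in that of Ms4a14. These motifs were searched on both strands, AGGAAGT was picked after the windows had been read, GAGGAAGT contains it, and a match describes letters and not a bound site.

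The levels of Ms4a6b, Ms4a7 and Ms4a4a were lower in AeEMs than in AeMMs, by 0.54 ± 0.08, 0.81 ± 0.14 and 0.96 ± 0.13 (SE) on the log2(TPM + 1) scale, where TPM is the transcript abundance scaled for length and library total. In the limma fit over all genes tested, with Benjamini-Hochberg adjustment, these 3 of 8 genes passed an adjusted p of 0.05 as lower in AeEMs, where 1.16% of the 8801 genes did so. None of the 8 was called higher, where 1.25% of all genes were. In this fit 7 of the 8 had an unadjusted p under 0.05, as did 1587 of the 8801 genes tested. The unadjusted counts of other lists below come from the same fit and have the same background. Because the genes were selected with this comparison in view, those shares are given for scale only. The median log2 fold change of the 8 genes was -0.41, that of all genes tested was -0.01, and 7 of the 8 values were negative. An adjustment made before deposit gives 3 library sets nearly the same mean for each gene, the first set being both libraries numbered 1, the second both numbered 2 and the third the 4 libraries numbered 3 or 4. A further limma fit also holds the set of each library (the set-term fit). In it none of the 8 was called lower, where 0.0568% of all genes were. Of the 8, 4 had an unadjusted p under 0.05 in the set-term fit, as did 848 of the 8801 genes tested. In a limma fit with the replicate number as a block, none of the 3 calls held, with adjusted p-values of 0.0891 for Ms4a4a, 0.159 for Ms4a6b and 0.144 for Ms4a7. As the libraries are bulk samples, fewer cells of a type and less RNA per cell cannot be told apart. The p-values measure only the spread between these 8 libraries that the adjustment left. Those of the fit without the set of each library can therefore be too small.

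**Figure D1:**
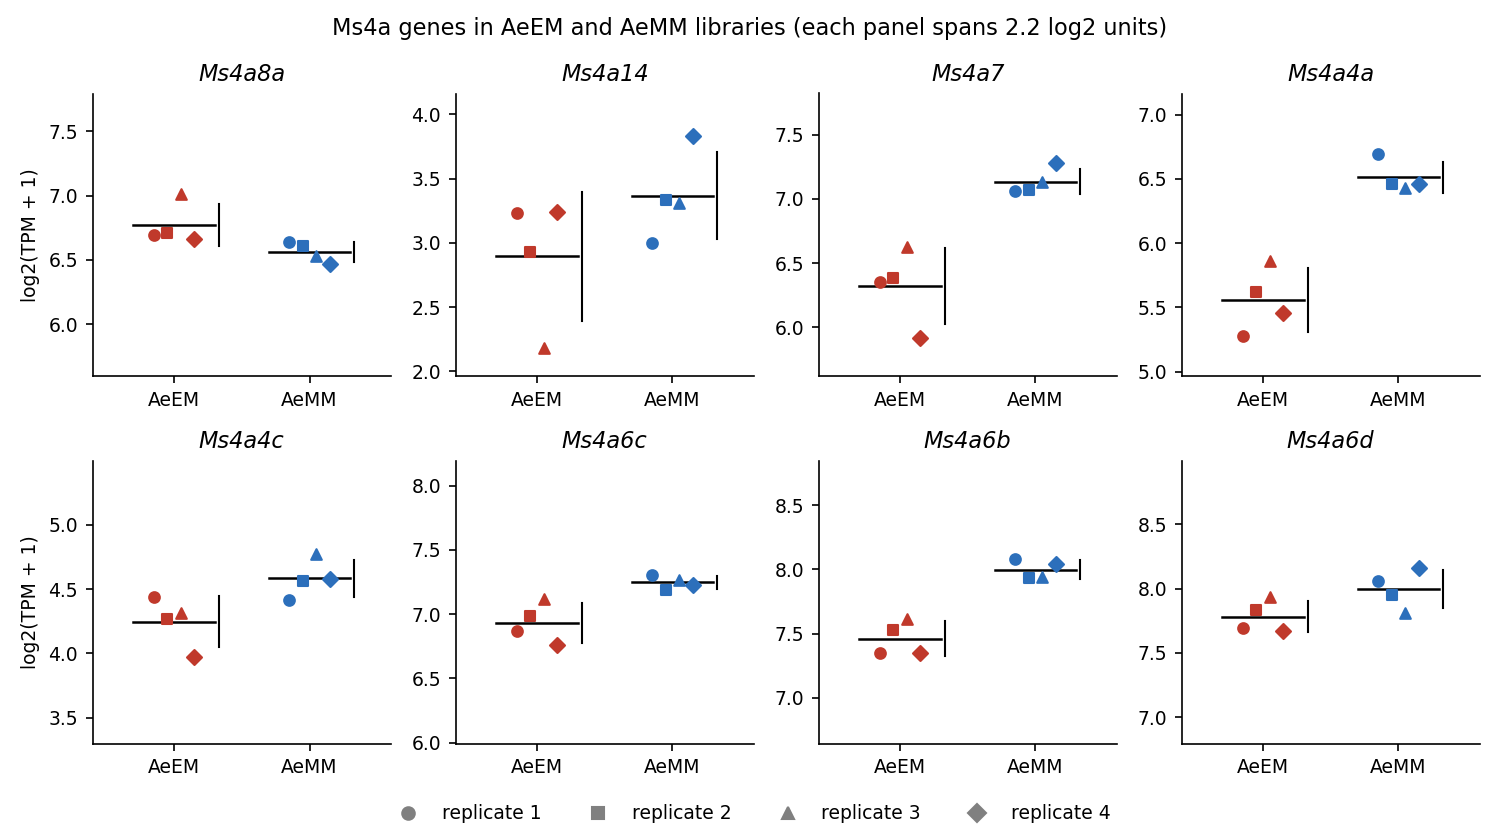
Values of the 8 Ms4a genes in each library, as log2(TPM + 1), with AeEM libraries (red) left of AeMM libraries (blue), horizontal lines at the group means and vertical bars of 1 SD (n = 4 each). Ms4a7, Ms4a4a, Ms4a6c and Ms4a6b lie lower in all 4 AeEM libraries than in any AeMM library, and Ms4a8a lies higher in all 4.

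Ms4a4a, the Dectin-1 partner, had the largest difference of the 8 genes. It measured 5.27, 5.62, 5.86 and 5.46 log2(TPM + 1) in AeEM replicates 1 to 4, against 6.69, 6.46, 6.43 and 6.46 in AeMM replicates 1 to 4. All AeEM libraries were lower than all AeMM libraries, the highest AeEM value being that of replicate 3. The group means were 5.55 ± 0.25 for AeEMs and 6.51 ± 0.12 for AeMMs (SD, n = 4 each). Libraries back-transformed 1 by 1 averaged 46.5 TPM for AeEMs and 90.4 TPM for AeMMs, 1.94 times as much in AeMMs. The adjusted p by limma was 0.0074, and it was 0.0663 in the set-term fit. Counted from the most negative, its log2 fold change stood at place 49 among the 8801 genes. Within the sets, the AeEM minus AeMM difference was -1.42 for number 1, -0.84 for number 2 and -0.78 for numbers 3 and 4, so its sign was the same in each and its size was largest for number 1. The gene (ENSMUSG00000101389.1) spans 11375523 to 11392790 on the plus strand.

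Ms4a7, the brain border macrophage marker, had 6.35, 6.39, 6.63 and 5.92 log2(TPM + 1) in AeEM replicates 1 to 4, against 7.06, 7.07, 7.13 and 7.27 in AeMM replicates 1 to 4. The AeEM libraries were all lower, AeEM replicate 4 being the lowest of its group and AeMM replicate 4 the highest of its own. Means were 6.32 ± 0.29 in AeEMs and 7.13 ± 0.10 in AeMMs (SD, n = 4 each). The back-transformed libraries averaged 80.1 TPM in AeEMs and 139.6 TPM in AeMMs. The adjusted p was 0.0215 by limma and 0.147 in the set-term fit. Set by set, the difference was -0.71, -0.68 and -0.93 for the sets in that order. This call was the least stable of the 3, since limma's adjusted p exceeded 0.05 in 5 of the 8 fits that left out a library: 0.0692 without AeEM replicate 1, 0.0616 without AeEM replicate 2, 0.0641 without AeMM replicate 1, 0.0626 without AeMM replicate 2 and 0.0523 without AeMM replicate 4. Ms4a7 (ENSMUSG00000024672.11) lies at 11321039 to 11336146 on the minus strand.

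Ms4a6b was the most abundant of the 3 genes. Its values were 7.35, 7.53, 7.62 and 7.35 log2(TPM + 1) in AeEM replicates 1 to 4, against 8.08, 7.93, 7.94 and 8.04 in AeMM replicates 1 to 4. No AeEM library reached the lowest AeMM library. Group means were 7.46 ± 0.14 in AeEMs and 7.998 ± 0.08 in AeMMs (SD, n = 4 each). After back-transformation of each library, the average was 175.7 TPM in AeEMs and 255 TPM in AeMMs. The adjusted p by limma was 0.0113 and that of the set-term fit 0.123, and the difference within the sets was -0.73, -0.40 and -0.51 in the same order as above. Both Ms4a6b and Ms4a4a stayed past the threshold in all 8 fits without 1 library. These fits did not hold the set of each library. As the adjustment ties the libraries of a set, a library left out still bears on the values that remain. Ms4a6b (ENSMUSG00000024677.13) is at 11516512 to 11531256 on the plus strand.

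Ms4a6c was lower in all 4 AeEM libraries but did not pass the test. Values were 6.87, 6.99, 7.11 and 6.76 log2(TPM + 1) in AeEM replicates 1 to 4, against 7.31, 7.19, 7.26 and 7.23 in AeMM replicates 1 to 4, a log2 fold change of -0.31 ± 0.08 (SE) with an adjusted p of 0.0886 by limma. Without AeEM replicate 3, the highest of its group, the adjusted p was 0.0436. Of its exon sequence, 1088 bases overlap BE692007, a transcript on the opposite strand, and since Smart-seq2 does not record the strand, reads of the pair cannot be told apart. BE692007 had a log2 fold change of -0.28 and an adjusted p of 0.276.

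Ms4a6d, the gene linked to Vsig4, was close to the level of Ms4a6b but differed less between the groups. It had 7.70, 7.83, 7.93 and 7.67 log2(TPM + 1) in AeEM replicates 1 to 4, against 8.06, 7.95, 7.81 and 8.16 in AeMM replicates 1 to 4. AeMM replicate 3 lay under 2 of the AeEM libraries, so the groups overlapped. The log2 fold change was -0.21 ± 0.09 (SE), with an adjusted p of 0.264 by limma.

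Ms4a4c and Ms4a14 were the least abundant of the 8, and their differences changed sign across the sets. Ms4a4c had 4.44, 4.26, 4.31 and 3.97 log2(TPM + 1) in AeEM replicates 1 to 4, against 4.41, 4.57, 4.77 and 4.58 in AeMM replicates 1 to 4. Ms4a14 had 3.23, 2.93, 2.18 and 3.24 log2(TPM + 1) in AeEM replicates 1 to 4, against 3.003, 3.33, 3.31 and 3.83 in AeMM replicates 1 to 4. In both genes the groups overlapped, and AeEM replicate 1 was above AeMM replicate 1 while the other sets ran the opposite way. The log2 fold changes of -0.34 ± 0.12 for Ms4a4c and -0.47 ± 0.26 for Ms4a14 (SE) had adjusted p-values of 0.183 and 0.389 in the limma fit. Without AeEM replicate 3, the lowest of its group, the Ms4a14 value was -0.23.

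Ms4a8a, the gene described in alternatively activated macrophages, was the only 1 of the 8 with a positive difference. It measured 6.70, 6.71, 7.02 and 6.66 log2(TPM + 1) in AeEM replicates 1 to 4, against 6.64, 6.61, 6.53 and 6.47 in AeMM replicates 1 to 4. The AeEM libraries were all higher, the nearest values being 6.66 in AeEM replicate 4 and 6.64 in AeMM replicate 1. Its log2 fold change was 0.21 ± 0.09 (SE), and its adjusted p of 0.264 in limma did not pass. Without AeEM replicate 3, the highest of its group, the difference was 0.13. Of the 8 genes, 4 had all AeEM values under all AeMM values (6.53% of all genes tested did), 1 had all AeEM values above (5.72% did) and 3 overlapped, counts that are given as a description for the reason above.

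**Figure D2:**
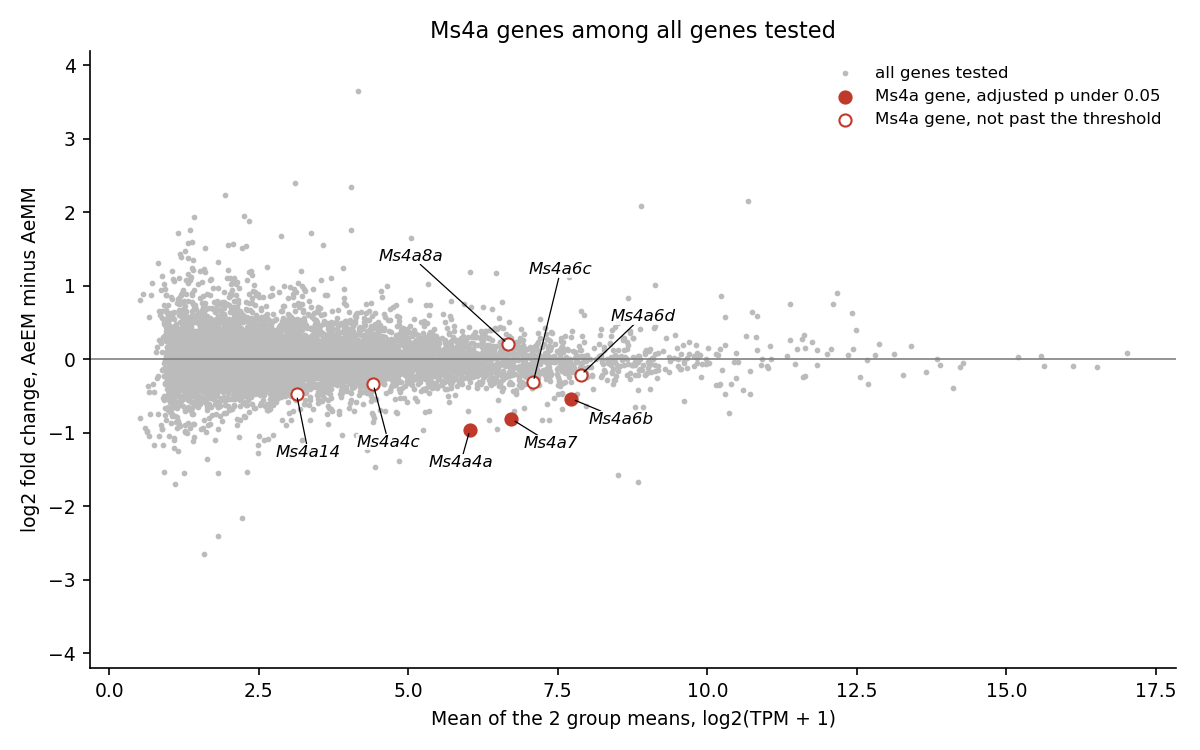
Log2 fold change (AeEM minus AeMM) against mean level in log2(TPM + 1) for the 8801 genes tested (grey) and the 8 Ms4a genes (red outlines, filled where the adjusted p was under 0.05). Ms4a4a, Ms4a7 and Ms4a6b lie at the lower edge of the genes of their level, and Ms4a8a alone of the 8 lies above 0.

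**Figure D3:**
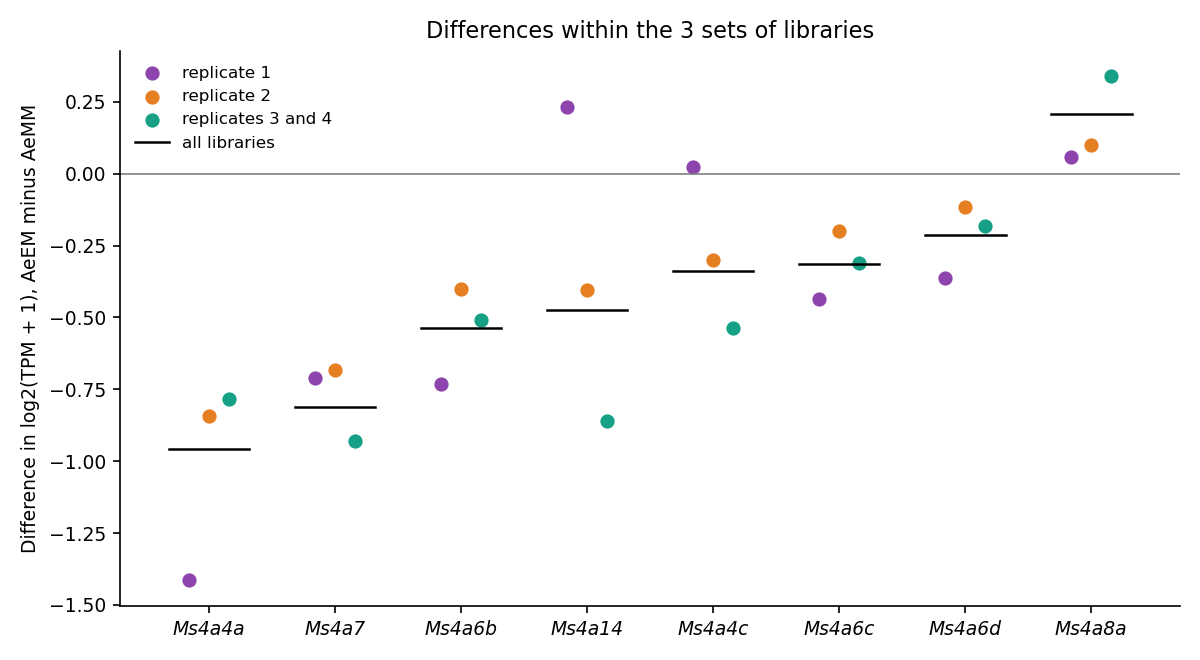
Difference in log2(TPM + 1), AeEM minus AeMM, of each Ms4a gene within the libraries numbered 1, those numbered 2 and those numbered 3 and 4 (coloured points), with a black line at the difference over all libraries. The points of Ms4a4a, Ms4a7, Ms4a6b, Ms4a6c and Ms4a6d are all negative, those of Ms4a14 and Ms4a4c are on both sides of 0, and those of Ms4a8a are positive.

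Most of these Ms4a genes were well expressed in both populations. TPM is scaled by transcript length, but how it was computed here is not given. How reads over the exon bases that Ms4a6c shares with BE692007 were assigned is not given either. Levels of different genes can therefore be set side by side only roughly. By mean over the 8 libraries Ms4a4c exceeded 77.8% of the genes tested and Ms4a14 58.7%. The others ranked higher, with Ms4a6d reaching 97.1%, Ms4a6b 96.8%, Ms4a6c 95.0%, Ms4a7 94.1%, Ms4a8a 93.6% and Ms4a4a 91.1%. The summed TPM of the 8 genes was 734.3, 795.9, 881.9 and 697.4 in AeEM replicates 1 to 4, against 1054, 982.8, 971.8 and 1060 in AeMM replicates 1 to 4. All AeEM sums were lower than all AeMM sums, with means of 777.4 ± 80.7 TPM in AeEMs and 1017 ± 46.3 TPM in AeMMs (SD, n = 4 each), which restates the differences of the abundant members.

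The order of the levels was the same in all 4 AeEM libraries, from Ms4a6d through Ms4a6b, Ms4a6c, Ms4a8a, Ms4a7, Ms4a4a and Ms4a4c down to Ms4a14. Among neighbours in this order, only the ranges of Ms4a6c and Ms4a8a overlapped over the AeEM libraries. In AeMMs the means ran Ms4a6b, Ms4a6d, Ms4a6c, Ms4a7, Ms4a8a, Ms4a4a, Ms4a4c and Ms4a14, and the ranges overlapped between Ms4a6b and Ms4a6d, between Ms4a6c and Ms4a7 and between Ms4a8a and Ms4a4a.

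Differences between pairs of family genes inside a library, in which the scaling of that library cancels, set the members against each other. These pairs were chosen after the values were seen and are not tested. Ms4a7 minus Ms4a8a was -0.35, -0.32, -0.39 and -0.75 on the log2 scale in AeEM replicates 1 to 4, against 0.42, 0.46, 0.60 and 0.81 in AeMM replicates 1 to 4, so that Ms4a8a was above Ms4a7 in each AeEM library and below it in each AeMM library. Ms4a6b minus Ms4a6d was -0.35, -0.30, -0.32 and -0.32 in AeEM replicates 1 to 4, against 0.02, -0.02, 0.13 and -0.11 in AeMM replicates 1 to 4. Ms4a6b was thus the lower of the pair by nearly the same amount in each AeEM library, while the sign varied among AeMM libraries. Ms4a4a minus Ms4a4c was 0.84, 1.36, 1.55 and 1.49 in AeEM replicates 1 to 4, against 2.28, 1.90, 1.66 and 1.88 in AeMM replicates 1 to 4, with no overlap. Ms4a6c minus Ms4a6d was -0.83, -0.84, -0.82 and -0.92 in AeEM replicates 1 to 4, against -0.75, -0.76, -0.55 and -0.93 in AeMM replicates 1 to 4, and these overlapped.

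**Figure D4:**
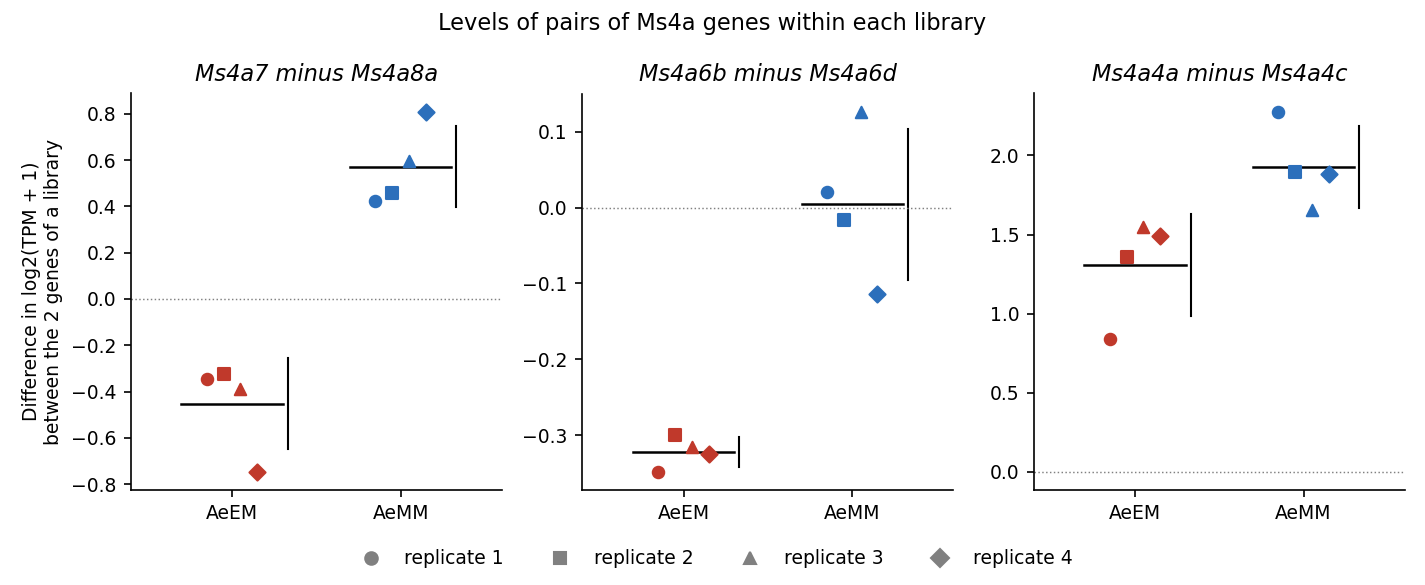
Differences in log2(TPM + 1) between Ms4a genes of the same library, for Ms4a7 minus Ms4a8a, Ms4a6b minus Ms4a6d and Ms4a4a minus Ms4a4c, with AeEM libraries (red) left of AeMM libraries (blue), means as lines and 1 SD as bars (n = 4 each). The groups do not overlap in any of the 3 panels, and in the first panel they lie on opposite sides of 0.

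The related sequences of the Ms4a6 genes bear on how far their values can be separated. Over their longest annotated coding sequences, Ms4a6b was 80.3% identical to Ms4a6d and 75.6% to Ms4a6c, and Ms4a6c was 68.5% identical to Ms4a6d. Ms4a4a and Ms4a4c were 60.5% identical. The longest run shared by 2 of these transcripts was 96 bases, between Ms4a6b and Ms4a6c, followed by 81 bases between Ms4a6b and Ms4a6d and 44 between Ms4a6c and Ms4a6d. No window of 150 bases, the read length, in any of the 9 transcripts occurred in a transcript of another Ms4a gene. Reads shorter after trimming, or with mismatches, could still fall in the shared runs, and how many did is unknown here. The encoded proteins have 213 to 290 residues, except Ms4a14 with 1232.

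Along the cluster, the 3 genes called lower lay between 11321039 and 11531256, with Ms4a4c and Ms4a6c, which were not called, between Ms4a4a and Ms4a6b. Ms4a14, Ms4a7, Ms4a8a and Ms4a6d are on the minus strand and the other 4 genes analysed on the plus strand. Apart from family members, 3 genes inside the cluster were tested. The lincRNA AW112010, at 11047612 to 11055808 beside Ms4a8a, fell to 7.53 ± 0.07 log2(TPM + 1) in AeEMs, against 8.03 ± 0.10 in AeMMs (SD, n = 4 each), with no overlap and an adjusted p of 0.00816 by limma and of 0.108 in the set-term fit. BE692007 and Gm8369 did not pass. Among the 5 nearest tested genes on either side, none on the left was called, and on the right only Mpeg1 was, the gene of the pore-forming protein perforin-2 of macrophages. It lies at 12460779 to 12465283, its log2 fold change was -0.42, and its adjusted p was 0.0211 by limma and 0.177 in the set-term fit.

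**Figure D5:**
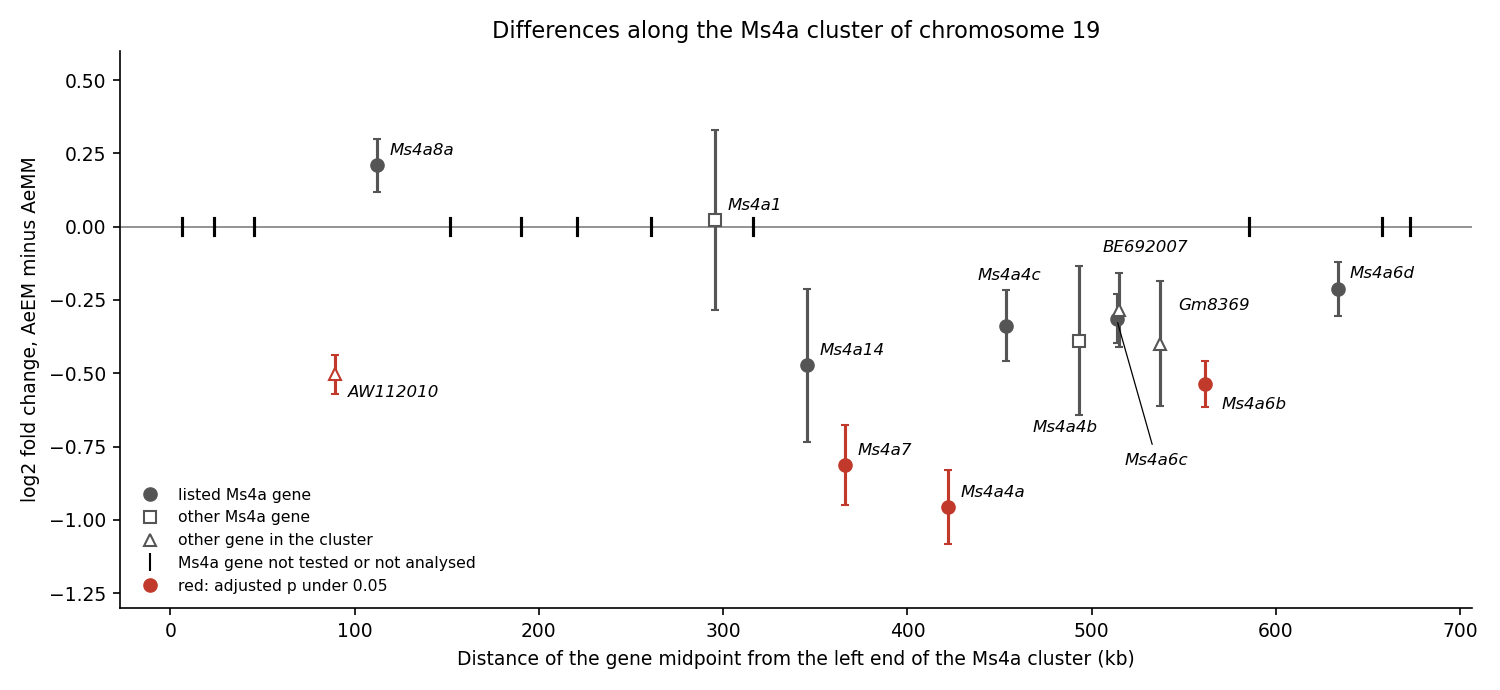
Log2 fold change (AeEM minus AeMM, bars of 1 SE) of the tested genes along the Ms4a cluster, against the distance of each gene's midpoint from the left end of the cluster in kb, with the listed Ms4a genes as filled circles, other family genes as squares, other genes as triangles and genes not tested or not analysed as ticks on the line at 0. Ms4a7, Ms4a4a, Ms4a6b and AW112010, in red, are those with an adjusted p under 0.05, and Ms4a8a lies above 0.

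The other Ms4a genes with values were sparse in these cells. Of the 10 other genes listed, 8 further Ms4a genes and the structural relatives Tmem176a and Tmem176b, 4 passed the filter on level, none was called in either direction, and 1 had an unadjusted p under 0.05. Ms4a1 (CD20) was at 1.02 ± 0.50 log2(TPM + 1) in AeEMs and 0.99 ± 0.49 in AeMMs, and Ms4a4b, a gene of T cells, was at 1.34 ± 0.56 in AeEMs and 1.73 ± 0.15 in AeMMs (SD, n = 4 each), with adjusted p-values of 0.982 and 0.477 in the limma fit. Ms4a2, Ms4a4d, Ms4a5, Ms4a10, Ms4a12 and Ms4a18 did not exceed 0.14 in any library. Tmem176a and Tmem176b were abundant, and their log2 fold changes were 0.13 and 0.03.

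A list of 10 genes covered proteins that work with Ms4a proteins in myeloid cells. Of these, 9 had a row and 8 passed the filter, and none was called by limma in either direction, while 3 had an unadjusted p under 0.05. The signalling adaptors Tyrobp (log2 fold change -0.24, adjusted p 0.0688) and Fcer1g (-0.23, adjusted p 0.0693) were lower in all 4 AeEM libraries without passing the limma test, and the kinase Syk, which acts after them, had 0.31 and an adjusted p of 0.149. The receptors Trem2 and Vsig4 had -0.07 and 0.02, the inflammasome adaptor Pycard -0.08 and the protease Casp1 -0.12. Il1b had -0.42 with wide spread, and the sensor Nlrp3 was under the filter in both groups. The Dectin-1 gene was not analysed here.

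For each gene, the 2 genes with the most similar profile over the 8 libraries were found among 3203 genes averaging 10 TPM or more, by the root mean square difference of log2 values after subtraction of each gene's mean. Those of Ms4a4a were Bhlhe41 (0.17) and the chemokine Ccl12 (0.17), those of Ms4a7 were Ccl12 (0.10) and the transporter Slco2b1 (0.13), and those of Ms4a6b were Pttg1 (0.07) and the transcription factor Bach1 (0.07). Ms4a6c was nearest to Tmem205 and Rbx1, Ms4a6d to Birc3 and Actr2, Ms4a4c to Fkbp3 and D17H6S53E, Ms4a14 to Lyz1 and Vezf1, and Ms4a8a to Gm10053 and Fam111a. The distance is not divided by a gene's SD over the 8 libraries, which ran from 0.16 for Ms4a8a to 0.54 for Ms4a4a. With libraries in 2 groups, genes can be near through a similar group difference alone, and shared regulation was not tested.

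Back-transformed TPM summed to 958839 to 974278 per library, 8498 to 8753 genes reached 1 TPM, and no libraries held identical values. Macrophage markers were present in both groups and 0 of 6 were called in the limma fit, with 3 of 6 at an unadjusted p under 0.05. Their log2 fold change was negative for Csf1r (-0.28), Mertk (-0.26), Adgre1 (-0.16), Lyz2 (-0.09) and Itgam (-0.04) and positive for Cd68 (0.13). Summed levels were 69100 to 77200 TPM in AeEMs against 70100 to 85300 TPM in AeMMs. Lyz2 was the highest of this list, at a mean of 16.06 log2(TPM + 1) in AeEMs and 16.15 in AeMMs. Of 10 markers of granulocyte progenitors and neutrophils in the table, 2 were tested. Both were called lower, the direction of Ms4a4a, Ms4a7 and Ms4a6b: Prtn3 (log2 fold change -0.96) and S100a8 (-1.03). The list sums were 36.4 to 40.7 TPM in AeEMs against 70.9 to 84.2 TPM in AeMMs. The rest were under the filter on level, with Mpo, Ngp, Ltf and Retnlg near 0. Of these, Elane, Ctsg, S100a9, Camp, Mpo and Ngp averaged lower in AeEMs, and Ltf and Retnlg averaged higher. Of the 7 markers of monocytes and their recent progeny, 2 were called lower, Ly6c2 (-1.55) and Chil3 (-2.16), and the list sums overlapped, at 194 to 308 TPM in AeEMs against 195 to 245 TPM in AeMMs. Of 5 markers of T and NK cells, Nkg7 was called lower (-2.41), with list sums of 1.1 to 4.17 TPM in AeEMs against 8.35 to 21.1 TPM in AeMMs and Cd3e near 0. Among 7 markers of dendritic cells, 3 were tested and 2, Cd209a and Itgax, were called higher. Their list sums were 44.1 to 106 TPM in AeEMs against 6.29 to 13.4 TPM in AeMMs. Cd209a was the highest gene of this list, at a mean of 5.98 log2(TPM + 1) in AeEMs and 2.33 in AeMMs. Flt3, Zbtb46, Xcr1 and Clec9a were under the filter on level. Of these, Clec9a averaged lower in AeEMs (0.63, against 0.73 in AeMMs), and Flt3, Zbtb46 and Xcr1 averaged higher. No gene was called by limma among the markers of large peritoneal macrophages (2 tested, 1 with an unadjusted p under 0.05), B cells (4 tested, 0), eosinophils (1 tested, 0), ovarian epithelial or mesothelial cells (2 tested, 0) and erythroid cells (4 tested, 3), and none of the markers of mast cells and basophils passed the filter. In the set-term fit Cd209a alone of the marker genes called here stayed past the threshold, with an adjusted p of 0.0326, while the next lowest were 0.0605 for Prtn3 and S100a8, 0.0712 for Nkg7 and 0.115 for Itgax. The part of these cells in the Ms4a differences was not tested.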

How the data were processed

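Female C57BL/6 fate-mapping mice gave 8 Smart-seq2 libraries, 4 of AeEMs and 4 of AeMMs. Per the paper's methods, fastp trimmed the reads, STAR 2.7.2a aligned these to mm10, and featureCounts of Subread assigned them to genes. The deposited values are log2(TPM + 1), used as they stand. How TPM was computed, logged and adjusted between 3 library sets (numbers 1, 2, and 3 with 4) is not given in the sources used here. That adjustment gave each gene nearly the same mean in the sets (median gap 0.00399, largest 0.19), which removes variation from the unpaired fit, so p-values from it can be too small. Sequencing depth is unknown, and counting intervals are therefore left out.

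The comparison of AeEMs with AeMMs used limma 3.58.1 in R 4.3.3 without pairing, with a trend of variance on mean, for the 8801 of 23469 genes averaging 1 TPM or more, and called genes at an adjusted p under 0.05 (Benjamini-Hochberg). As alternatives, pseudocounts of 0.1 and 5, no filter or a filter at 5 TPM, quantile normalisation, no trend, array weights, a replicate block, a term for the 3 library sets, and fits without each library were run. The genes named are the 9 listed, other Ms4a genes with Tmem176a and Tmem176b, 10 partners, tested genes inside the cluster and the 5 nearest on either side, the 2 nearest profiles of each gene, and markers where a list moved with the genes. The members and the lists were chosen with earlier results of these data known. Marker lists covered macrophages, large peritoneal macrophages, monocytes, granulocytes, dendritic cells, B cells, T and NK cells, mast cells and basophils, eosinophils, ovarian epithelial or mesothelial cells, and erythroid cells. Gene positions, exons and transcripts came from GENCODE M21, and upstream windows from RefSeq. Protein sequences were not used here.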

Additional observations from a re-analysis of the deposited data

Results flagged for a closer look

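The highest and lowest library of each group were set against the rest of the group for the 8 genes, 16 groups in all. Chance alone picks out about 1 group in 20 where libraries are independent, which the adjustment between sets does not leave them. Ms4a8a in AeEM replicate 3 was 7.02 log2(TPM + 1), and the other AeEM libraries lay between 6.66 and 6.71. Ms4a4a in AeMM replicate 1 was 6.69 log2(TPM + 1), above the other AeMM libraries at 6.43 to 6.46. The adjustment ties this value to that of AeEM replicate 1, which was the lowest AeEM library, at 5.27. Without AeEM replicate 3 the log2 fold change of Ms4a8a (AeEM minus AeMM) was 0.13, against 0.21 with all libraries. Without AeMM replicate 1 that of Ms4a4a was -0.90, against -0.96 with all libraries.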

How the results depend on the processing

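No gene reversed its direction under the 17 alternatives. Of the 8 genes, 3 were called lower in AeEMs, and 5 with array weights (Ms4a6c and Ms4a6d added), 0 with the replicate block and 0 with a term for the 3 library sets. Between 2 and 4 genes were called when a library was left out: 4 without AeEM replicate 3, and 2 (Ms4a4a and Ms4a6b) without replicate 1 or 2 of the AeEMs, or without replicate 1, 2 or 4 of the AeMMs. Without a filter 2 were called, Ms4a7 having an adjusted p of 0.0727. No gene was called higher in any fit. The limma adjusted p over the fits without 1 library ran from 0.00459 to 0.0296 for Ms4a4a, from 0.0103 to 0.0487 for Ms4a6b and from 0.0144 to 0.0692 for Ms4a7, and with the replicate block it was 0.0891, 0.159 and 0.144. Deviations of AeEM and AeMM libraries with the same number correlated at -0.992, -0.999, -0.199 and -0.133 for replicates 1 to 4, but the adjustment between sets forces the first 2 of these values, so this check of the pairing is void. Over all genes, array weights called 540 higher and 836 lower, the replicate block 3 and 2, and the set term 9 and 5, against 110 and 102 without them. The log2 fold change of Ms4a14 was -0.20 and that of Ms4a8a 0.12 with array weights, against -0.47 and 0.21 without them. The cause of these changes was not tested. With no read counts, depth sets no stated limit, and 4 libraries per group limit the precision.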
